A study of Mus musculus with 6 samples.

Results

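The Ifit genes encode interferon-induced proteins with tetratricopeptide repeats, and the mouse holds them in a cluster on chromosome 19. The 6 genes described here, Ifit2, Ifit3, Ifit1bl1, Ifit3b, Ifit1bl2 and Ifit1 in chromosome order, were taken by name from a table of read counts for 54532 genes, and each name matched 1 gene. They were chosen with the difference between the groups in these same counts in view, and Ifit2 was singled out because its counts did not follow those of its neighbours. Their own differences are therefore given as a description, without a test.

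RNA was sequenced from MB49, a bladder cancer line from a male mouse, edited with CRISPR in a form that carries the Y chromosome. The Y-KO group, labelled as the CRISPR knockout of Y, and the Y-Scr group, made with a guide RNA that targets no gene, had 3 libraries each, and all 6 carry batch 1 in the labels. In both groups the transduced cells were sorted on the red fluorescent protein tRFP and grown from single cells; the labels do not name the guide that made Y-KO. The labels do not say if the 3 libraries of a group came from different clones or cultures. The p-values given thus cover the spread among these libraries alone, which may be technical, and Y loss and a difference between clones cannot be told apart.

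The libraries held 15698510 to 24633158 counts, which puts a floor of 3 counts at 0.125 to 0.19 CPM (counts per 1000000 counts of the library). The Y-linked genes Ddx3y, Eif2s3y, Kdm5d and Uty together had 0 counts in each Y-KO library, against 6747 to 8860 counts in the Y-Scr libraries. Of the listed urothelial and epithelial markers, the keratin genes Krt8 (2820 CPM in Y-KO and 2190 CPM in Y-Scr) and Krt18 were abundant. Upk3a and Epcam had 0 counts in all libraries, and Upk1a, Upk1b, Upk2, Krt5, Krt7 and Pparg were near 0, so most of the listed markers of urothelium were absent. Gata3, a urothelial transcription factor gene, was expressed and fell, with 2.81 ± 0.768 CPM in Y-KO and 7.80 ± 0.333 CPM in Y-Scr (log2 fold change -1.48 ± 0.21, SE; adjusted p = 1.4e-05, edgeR). Of the immune cell markers, 6 of 12 were at 0 in all libraries, among them Ptprc, Cd3e, Cd3g, Itgam and Ncr1. The summed immune marker level was 34.4 to 41.4 CPM in Y-KO and 52.7 to 54.4 CPM in Y-Scr, nearly all of it Flt3. Fibroblast markers summed to 17.7 to 20.9 CPM in Y-KO and 11.6 to 15.4 CPM in Y-Scr, most of it Pdgfra.

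Ifit proteins are effectors of the antiviral state. Type I interferon acts through its receptor on ISGF3, a complex that holds Stat2 and Irf9 and binds a DNA element, the interferon-stimulated response element (ISRE), beside its target genes. IRF factors activated by the sensing of viral nucleic acid bind the same element. Ifit1 binds viral RNA whose 5′ cap lacks a methyl group that most host mRNAs carry, Ifit3 works in complexes with other Ifit proteins, and Ifit2 protects mice against certain neurotropic viruses. Several Ifit proteins also bind the translation initiation factor eIF3.

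The bases around annotated starts of the genes are shown first. At least 1 window of each other Ifit gene held an ISRE match, and no Ifit2 window did. Whether this bears on the counts was not tested. Of 23 listed interferon-stimulated genes with a window, 10 (43.5%) held a match and the others held none, as given below. Among all genes with a window, 3.99% held a match. Each sequence is a RefSeq promoter window of GRCm38.p6, 250 bases before to 50 after the start, on the strand of the gene and 5′ to 3′, with matches to the ISRE (GAAA, any 2 bases, then GAAA, searched on both strands) in capitals. The windows shown are both annotated starts of Ifit2 (chr19:34550444-34550743 and chr19:34550838-34551137, plus strand), then those of Ifit3 (chr19:34583279-34583578, plus strand), Ifit1 (chr19:34640639-34640938, plus strand) and the outer start of Ifit1bl1 (chr19:34601919-34602218, minus strand).
Ifit2, start 1: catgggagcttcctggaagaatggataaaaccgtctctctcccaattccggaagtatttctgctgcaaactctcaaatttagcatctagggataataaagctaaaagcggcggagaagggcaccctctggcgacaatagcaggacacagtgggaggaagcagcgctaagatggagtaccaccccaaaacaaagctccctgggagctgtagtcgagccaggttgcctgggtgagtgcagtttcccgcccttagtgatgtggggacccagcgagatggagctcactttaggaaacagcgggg
Ifit2, start 2: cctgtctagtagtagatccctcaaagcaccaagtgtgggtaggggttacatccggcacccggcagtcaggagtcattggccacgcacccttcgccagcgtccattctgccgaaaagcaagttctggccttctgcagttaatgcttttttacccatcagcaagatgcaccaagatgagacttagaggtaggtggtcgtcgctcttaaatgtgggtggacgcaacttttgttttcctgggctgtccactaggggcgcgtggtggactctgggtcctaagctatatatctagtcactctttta
Ifit3: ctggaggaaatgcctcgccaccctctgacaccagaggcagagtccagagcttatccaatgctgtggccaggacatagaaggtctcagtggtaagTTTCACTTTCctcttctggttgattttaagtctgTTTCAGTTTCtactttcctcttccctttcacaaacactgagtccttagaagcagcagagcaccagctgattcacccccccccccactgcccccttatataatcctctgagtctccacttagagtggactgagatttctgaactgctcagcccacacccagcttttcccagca
Ifit1: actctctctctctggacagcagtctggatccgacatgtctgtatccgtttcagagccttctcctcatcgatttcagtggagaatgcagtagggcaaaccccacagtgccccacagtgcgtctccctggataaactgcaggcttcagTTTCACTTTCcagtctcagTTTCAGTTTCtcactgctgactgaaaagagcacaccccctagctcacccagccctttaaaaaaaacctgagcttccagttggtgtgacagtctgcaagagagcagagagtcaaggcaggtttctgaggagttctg
Ifit1bl1, start 1: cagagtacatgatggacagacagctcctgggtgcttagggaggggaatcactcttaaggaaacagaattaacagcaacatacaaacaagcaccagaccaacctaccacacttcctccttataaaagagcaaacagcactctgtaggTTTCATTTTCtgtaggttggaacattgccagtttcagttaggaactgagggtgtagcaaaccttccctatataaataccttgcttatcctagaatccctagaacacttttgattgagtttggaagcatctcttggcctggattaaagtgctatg

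Of the 9 annotated starts of the 6 genes, 6 had at least 1 ISRE match, and these belonged to 5 of the 6 genes. Neither of the 2 Ifit2 windows held one. Among all 32841 RefSeq promoter windows of this length, 3.44% held a match. With the annotated start as position 0, the Ifit3 matches lay at -156 to -147 and -122 to -113, and the Ifit1 matches at -104 to -95 and -85 to -76. Ifit3b had the same pair of matched sequences as Ifit3, at -188 to -179 and -154 to -145. The windows of the 2 genes were identical at 259 of 260 aligned bases, with 80 gap bases left out. Ifit1bl2 starts 128 bases from Ifit1 and points the other way, so the windows of the 2 genes overlap by 245 bases and share both matches. The inner start of Ifit1bl2 held no match. Each start of Ifit1bl1 held 1 match, at -104 to -95 of the outer start and -23 to -14 of the inner one.

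The first Ifit2 window held 1 match to the NF-kB motif and, sharing 4 bases with it, 1 to the GAS motif (TTCNNNGAA, an element of the response to interferon gamma). These motifs stood in 8.46% and 8.3% of all windows. The TATA box letters (TATAAA; 13.6% of all windows) were found at both starts of Ifit1bl1 and at the inner start of Ifit1bl2. The 2 Ifit2 windows had 10 and 11 CpG dinucleotides, against 0 to 4 in the other 7 windows and a median of 7 over all windows. A match is a description of letters and not of a bound site, and a window without one says nothing about sequence outside it. The long annotated transcript of Ifit2 has 3 exons, with 19.5 kb from the start to exon 2 and 22.4 kb to exon 3. Its last exon holds 3353 of the transcript's 3818 bases. The Ifit1bl2 transcript, on the minus strand, also has 3 exons. It starts at 34640743, and its last exon begins at 34620182 and holds 3134 of 3367 bases. A large last exon far from the start is thus not particular to Ifit2. The bases beside exons 2 and 3 of Ifit2 were not read here.

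**Figure D1:**
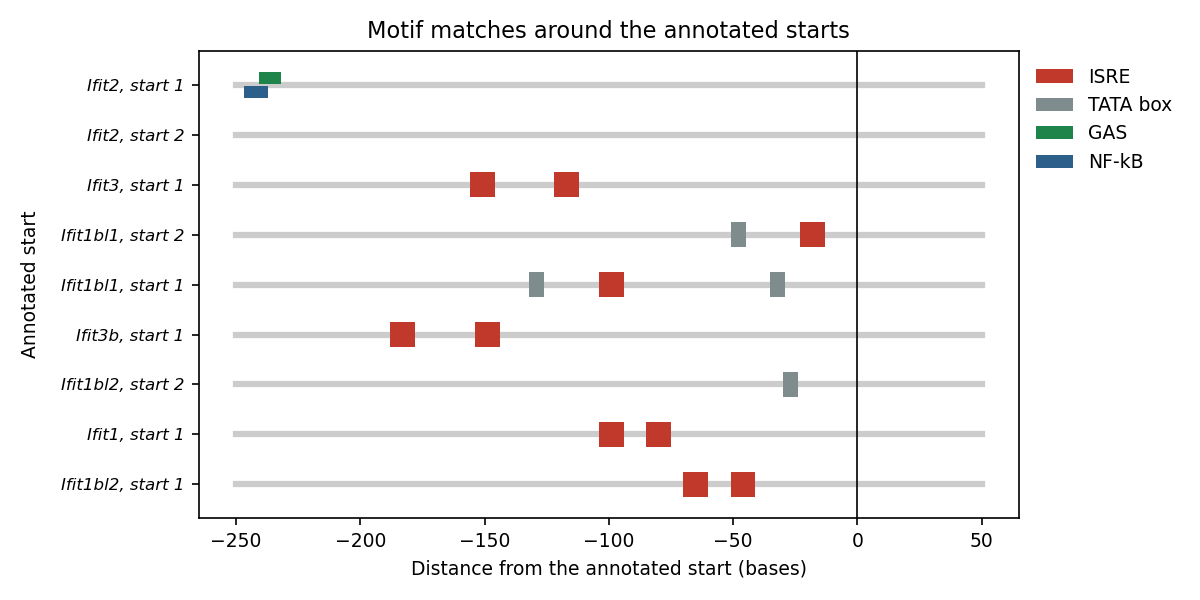
Motif matches in the RefSeq windows of the 6 genes, one row per annotated start in chromosome order, with the distance from the start in bases on the x axis. ISRE matches (red) appear at 6 of the 9 starts and at neither start of Ifit2.

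Ifit2 is the first gene of the cluster (ENSMUSG00000045932, GRCm38, chromosome 19, 34550694 to 34576419, plus strand). It had 548, 429 and 570 counts in the Y-KO libraries and 407, 462 and 654 counts in the Y-Scr libraries. On scaled library sizes this was 29.4, 26.7 and 32.3 CPM in Y-KO, against 25.8, 27.9 and 27.3 CPM in Y-Scr. The lowest Y-KO library lay below 2 of the Y-Scr libraries, so the groups overlapped. Mean levels were 29.5 ± 2.79 CPM in Y-KO and 27.0 ± 1.1 CPM in Y-Scr (SD, n = 3 each), a log2 fold change of 0.13 ± 0.10 (SE). As TPM, in which counts per gene length are scaled to 1000000 in each library, the same counts gave 19.3 to 23.4 TPM in Y-KO and 17.4 to 17.8 TPM in Y-Scr, and the groups did not overlap. That log2 ratio was 0.28, while the median over all tested genes was 0.14 in TPM and -0.01 in CPM, so Ifit2 stood 0.14 above the median gene on either scale.

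Ifit1, the cap sensor at the other end of the cluster (ENSMUSG00000034459, chromosome 19, 34640871 to 34650009), had 4, 0 and 1 counts in Y-KO and 498, 458 and 697 counts in Y-Scr. The means were 0.0905 ± 0.111 CPM in Y-KO and 29.4 ± 1.92 CPM in Y-Scr (SD, n = 3 each). In Y-Scr this CPM was near that of Ifit2, a longer gene. Per kilobase of gene length, Ifit1 stood higher there, at 11.1 against 6.88 CPM per kb. The summed Y-KO level was 307-fold lower (Y-Scr over Y-KO, exact 95% interval 131 to 948, for counting error only), with a fitted log2 fold change of -8.17 ± 0.28 (SE). In 1 Y-KO library no Ifit1 read was counted, and 4 of the 5 Y-KO counts were in replicate 1. Without that library the fitted value was -9.65.

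Ifit3 lies next to Ifit2, 7.11 kb away (ENSMUSG00000074896, chromosome 19, 34583531 to 34588731). It had 3, 4 and 7 counts in Y-KO and 388, 435 and 553 counts in Y-Scr, with means of 0.269 ± 0.119 CPM in Y-KO and 24.7 ± 1.61 CPM in Y-Scr (SD, n = 3 each). The Y-KO level was 91.4-fold lower (exact 95% interval 54.3 to 168), and the fitted log2 fold change was -6.49 ± 0.22 (SE). Its near copy Ifit3b (ENSMUSG00000062488, chromosome 19, 34607970 to 34613401) had 0 counts in each Y-KO library and 80, 93 and 123 counts in Y-Scr, a mean of 5.28 ± 0.306 CPM. With 3 counts over the Y-KO group as the floor, its Y-KO level was at least 91.8-fold lower.

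The 2 Ifit1b-like genes on the minus strand were weakly expressed in both groups. Ifit1bl1 (ENSMUSG00000079339, chromosome 19, 34592888 to 34601968) had 3, 3 and 2 counts in Y-KO and 43, 36 and 48 counts in Y-Scr. That was 0.154 ± 0.0373 CPM in Y-KO and 2.30 ± 0.374 CPM in Y-Scr (SD, n = 3 each), 14.8-fold lower in Y-KO (exact 95% interval 7.27 to 34.9), with a fitted log2 fold change of -3.84 ± 0.48 (SE). Ifit1bl2 (ENSMUSG00000067297, chromosome 19, 34617049 to 34640743) had 0, 0 and 1 counts in Y-KO and 9, 12 and 4 counts in Y-Scr. It did not pass the low-count filter, and its ratio of 23.3 (Y-Scr over Y-KO) has an exact 95% interval from 3.81 to 955. The Y-KO levels of Ifit3, Ifit1bl1, Ifit3b, Ifit1bl2 and Ifit1 rest on 0 to 7 counts per library. Ifit3 took 0.889% of the 6 genes' counts in Y-KO (95% Wilson interval 0.53 to 1.49) and Ifit3b 0% (0 to 0.243). The split of reads between these near copies is uncertain, so no order of the pair is read from this. Ifit1 overlapped both Ifit1bl1 and Ifit1bl2 in counts per library.

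In all, 5 of the 6 genes were lower in every Y-KO library than in any Y-Scr library, while 27.5% of the 12907 tested genes were lower without overlap. Since the genes were chosen on this contrast, nothing is read from that count. In bulk RNA, fewer cells that express a gene and less RNA per cell cannot be told apart. The summed immune marker level, nearly all of it Flt3, was also lower in Y-KO, as given above. That of fibroblast markers, most of it Pdgfra, was higher. Ptprc, Cd3e, Cd3g, Itgam and Ncr1 were at 0 in both groups. A part of other cell types in these differences was not tested.

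**Figure D2:**
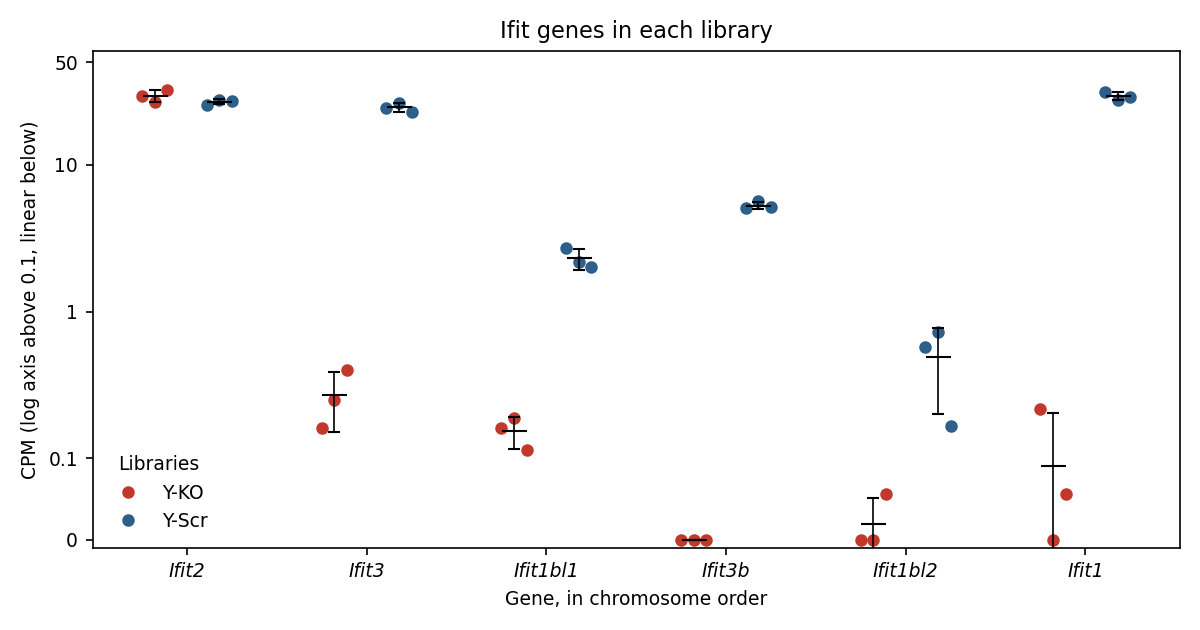
Level of each gene in each library in CPM on scaled library sizes (log axis above 0.1, linear below), with Y-KO left of Y-Scr for each gene and the mean ± SD of 3 libraries as bars. Ifit2 lies between 25.8 and 32.3 CPM in all 6 libraries, and the other 5 genes lie under 0.4 CPM in every Y-KO library.

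The make-up of the family's counts shows the same difference without any scaling between libraries. Ifit2 took 98.2%, 98.4% and 98.1% of the counts of the 6 genes in the Y-KO libraries, against 28.6%, 30.9% and 31.5% in the Y-Scr libraries. Over the summed libraries the shares were 98.2% in Y-KO (95% Wilson interval 97.4 to 98.8) and 30.5% in Y-Scr (29.2 to 31.8). The other 5 genes together had 10, 7 and 11 counts in Y-KO, or 0.436 to 0.623 CPM, and 1018, 1034 and 1425 counts in Y-Scr, or 59.5 to 64.4 CPM. Within a library, Ifit2 had 183, 107 and 81.4 counts for each count of Ifit3 in Y-KO, against 1.05, 1.06 and 1.18 in Y-Scr. Against Ifit3b, the ratio in Y-Scr was 5.09, 4.97 and 5.32, and in Y-KO it was at least 183, 143 and 190 with Ifit3b set to 3 counts per library. The count ratio of Ifit2 to Ifit3 was thus far higher in each Y-KO library than in each Y-Scr library. Counts are not corrected for gene length, so a ratio near 1 does not mean equal levels. Per kilobase, the Y-Scr means were 6.88 CPM for Ifit2 and 14.1 CPM for Ifit3.

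**Figure D3:**
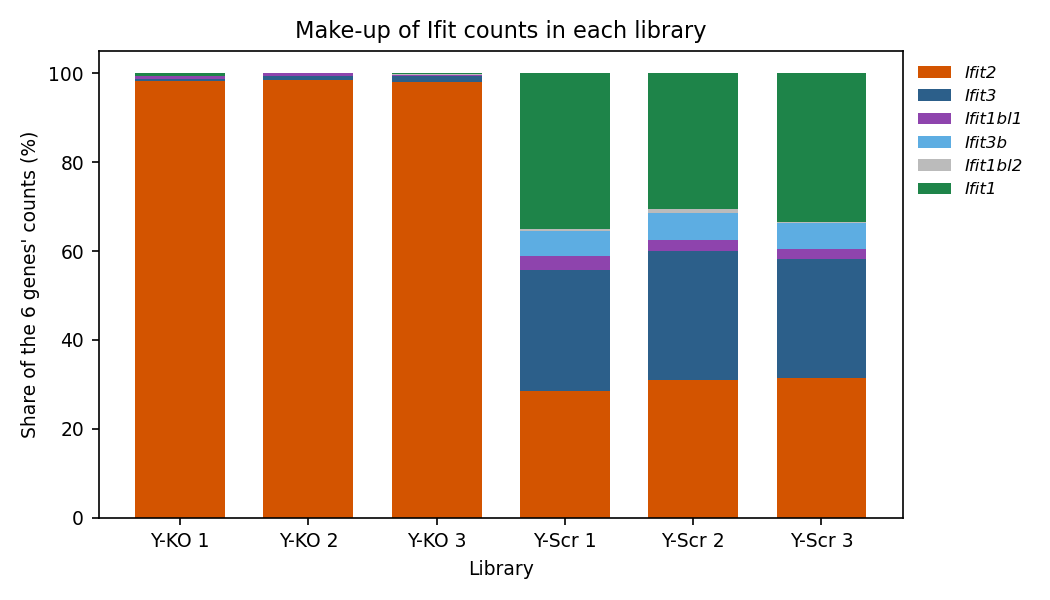
Share of the 6 genes' counts held by each gene, in percent, with one bar per library and Y-KO on the left. Ifit2 holds 98.1% to 98.4% in the Y-KO libraries and 28.6% to 31.5% in the Y-Scr libraries.

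Levels between genes were compared per kilobase of gene length. In Y-KO, Ifit2 stood at 7.51 ± 0.712 CPM per kb, above 54.0% of tested genes. The highest mean among the other Ifit genes was that of Ifit3, at 0.154 ± 0.0682 CPM per kb. It rests on 3 to 7 counts per library and on an uncertain split with Ifit3b. In Y-Scr the order was Ifit3 (14.1 ± 0.922 CPM per kb), Ifit1 (11.1 ± 0.725), Ifit2 (6.88 ± 0.288), Ifit3b (2.64 ± 0.153), Ifit1bl1 (1.01 ± 0.164) and Ifit1bl2 (0.145 ± 0.0856). No neighbours in that Y-Scr order overlapped in their library values. Ifit3 stood above 69.6% of tested genes in Y-Scr and above 2.1% in Y-KO.

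Reads can be split between near copies, and the annotated transcripts show where. The coding sequences of Ifit3 and Ifit3b were identical at 99.1% of 1209 bases, and those of Ifit1bl1 and Ifit1bl2 at 89.8% of aligned bases (30 gap bases left out). Of all 75-base windows of the Ifit3 transcript, 41.1% also occurred in Ifit3b, so the split of counts between this pair is uncertain. No 50-base, 75-base or 100-base window of the long Ifit2 transcript occurred in a transcript of another member. The Ifit2 coding sequence was identical to those of the other members at 71.4% to 75.8% of aligned bases. These percentages leave out 263 to 329 gap bases per pair. Of the Ifit1 windows of 75 bases, 5.19% occurred in Ifit1bl2. With Ifit3 and Ifit3b summed to 1 feature and Ifit1 summed with the Ifit1b-like genes, Ifit2 kept its log2 fold change of 0.13 and the summed Ifit1 feature stood at -6.88.

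Genes next to the cluster, which were not used to choose the 6 genes, moved unequally. Of 34 genes within 1 Mb, 6 were tested: 2 fell and 2 rose, against 23.0% lower and 20.7% higher among all tested genes. Fas, which encodes a death receptor, lies 222.9 kb before the cluster and fell, with 4.92 ± 0.129 CPM in Y-KO and 26.6 ± 3.62 CPM in Y-Scr (log2 fold change -2.43 ± 0.13, SE; adjusted p = 2.7e-11, edgeR's quasi-likelihood test with Benjamini-Hochberg adjustment). Stambpl1, a deubiquitinase gene, fell by 0.68 ± 0.07, with 52.1 ± 0.386 CPM in Y-KO and 83.2 ± 4.1 CPM in Y-Scr. Lipa, the lysosomal acid lipase gene and the nearest tested gene at 23.2 kb before Ifit2, had 53.9 ± 2.86 CPM in Y-KO and 48.4 ± 4.75 CPM in Y-Scr (log2 fold change 0.16 ± 0.09, adjusted p = 0.158, edgeR). It passed the threshold without Y-Scr replicate 1, at 0.23.

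On the far side of the cluster, Kif20b, a mitotic kinesin gene, rose by 0.48 ± 0.07 (adjusted p = 3.4e-05, edgeR). Pank1, of coenzyme A synthesis, rose by 0.43 ± 0.16 (adjusted p = 0.0304, edgeR), a call lost without Y-KO replicate 3 (0.32), Y-Scr replicate 1 (0.42) or Y-Scr replicate 2 (0.37). Before the cluster, Lipn stood at -0.17 ± 0.14 (adjusted p = 0.374, edgeR) and at 0.01 without Y-Scr replicate 2. Also before it, Ch25h, a cholesterol hydroxylase gene known as interferon-induced, had 0 counts in all libraries. None of the 6 tested neighbours had an ISRE match in its RefSeq windows. From Fas to Ifit3, the fitted log2 fold changes along the chromosome were -2.43 for Fas, 0.16 for Lipa, 0.13 for Ifit2 and -6.49 for Ifit3.

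**Figure D4:**
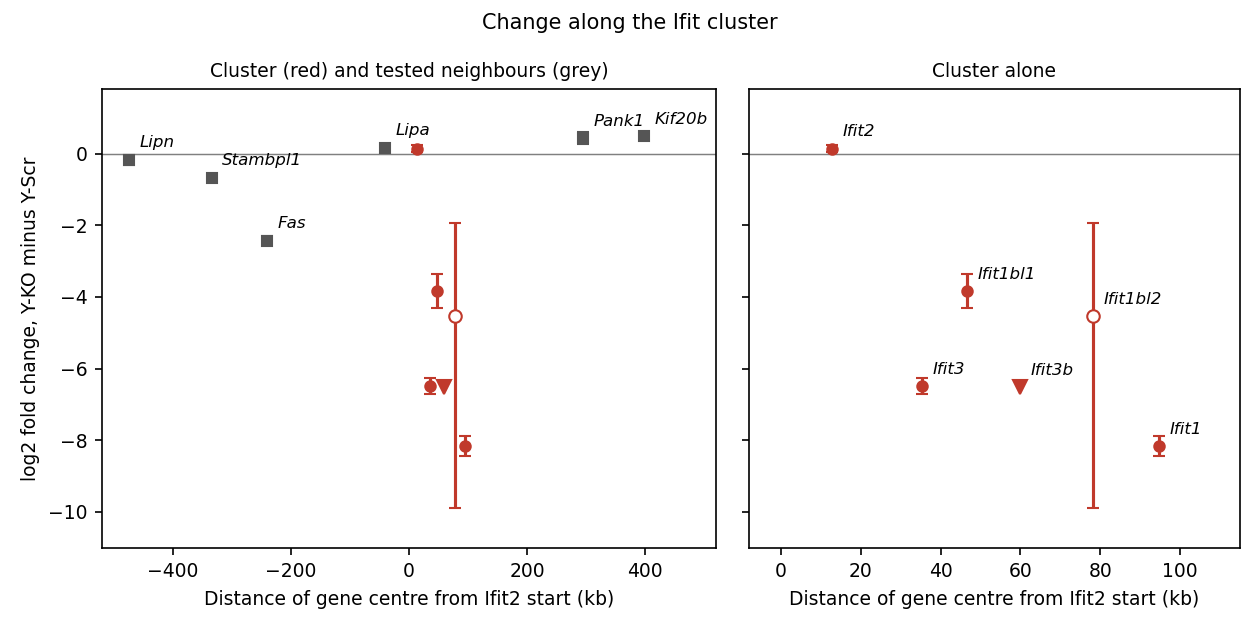
Log2 fold change, Y-KO minus Y-Scr, against the distance of the gene centre from the Ifit2 start in kb for tested neighbours (grey squares) and the cluster (red), with SE bars and the cluster alone on the right. The triangle is the bound for Ifit3b, and the open point is the count ratio of Ifit1bl2 with its exact 95% interval; Ifit2 at 0.13 lies beside Lipa at 0.16 and apart from Ifit3 at -6.49.

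Among other genes of the interferon response, nearly all of a list were lower. Of 33 listed interferon-stimulated genes 31 were tested, 30 fell and 0 rose, against 23.0% and 20.7% of all tested genes. The list was chosen with earlier results of these data known, so the count is a description. Genes near the floor in Y-KO, such as Isg15 and Rtp4, passed the low-count filter only through Y-Scr. For these, being tested and being lower are not separate outcomes, and the same holds for Ifnb1 below. The list median was -3.25, also with genes at 0 counts set to their bound, beside -0.01 for all tested genes. Isg15, which encodes a ubiquitin-like modifier, had 3, 3 and 4 counts in Y-KO and 483, 619 and 948 in Y-Scr, and its log2 fold change was -7.50 ± 0.22 (SE; adjusted p = 1.3e-15, edgeR). Usp18, whose product removes Isg15 and restrains the receptor, fell by 6.67 ± 0.20, and Rsad2, the viperin gene, fell by 5.51 ± 0.15. Rtp4 had 3 counts in Y-KO and 1707 in Y-Scr, a ratio of 529 (exact 95% interval 181 to 2570). The gene of the list that did not pass, named after its values were seen, was the cap methyltransferase gene Cmtr1, at 0.702 ± 0.137 CPM in Y-KO and 0.816 ± 0.0818 CPM in Y-Scr (log2 fold change -0.21 ± 0.44, adjusted p = 0.731, edgeR).

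Upstream of the Ifit genes, Irf9 and Stat2 of ISGF3 fell and the receptor kinases Jak1 and Tyk2 rose. Of 7 tested genes of the receptor and ISGF3 chain, 3 fell and 2 rose, against 23.0% and 20.7% of all tested genes, and the list median was -0.26. Irf9 fell by 3.08 ± 0.10 (SE), with 124, 131 and 121 counts in Y-KO and 933, 1006 and 1509 in Y-Scr (adjusted p = 1.5e-14, edgeR). Stat2 fell by 1.43 ± 0.11, while the kinase genes Jak1 and Tyk2 rose by 0.27 ± 0.07 and 0.33 ± 0.09. The receptor genes Ifnar1 (0.12 ± 0.08) and Ifnar2 (-0.26 ± 0.11) did not pass, Ifnar2 narrowly (adjusted p = 0.0529, edgeR). With the filter of 1 CPM in 3 libraries, or without Y-Scr replicate 1, 4 genes of this list fell. In the list of IRF3 and IRF1 activation, 4 of 8 tested genes fell and 1 rose, against the same 23.0% and 20.7%, with a median of -0.21. Ifnb1, the interferon beta gene, had 0 counts in each Y-KO library and 22, 30 and 48 in Y-Scr, at least 31.0-fold lower in Y-KO. Irf1 fell by 1.40 ± 0.07 and the kinase gene Ikbke fell by 1.10 ± 0.10, and the adaptor gene Mavs rose by 0.46 ± 0.08. Irf3 stood at -0.13 ± 0.09 and its kinase gene Tbk1 at 0.06 ± 0.08, neither past the threshold.

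The RNA cap and eIF3, on which Ifit proteins act, showed differences in both directions. Of 11 tested genes of cap enzymes and cap binding, 3 fell and 1 rose, with a median of -0.07. Among all tested genes 23.0% fell and 20.7% rose, and the share of cap genes that fell was near that background. Cmtr2, a cap methyltransferase gene, fell by 0.71 ± 0.10 (adjusted p = 1.3e-05, edgeR), the cap-binding gene Eif4e fell by 0.33 ± 0.07, and the methyltransferase gene Rnmt fell by 0.25 ± 0.07, a call lost without Y-KO replicate 3 (-0.22). Ncbp2, of the nuclear cap-binding complex, rose by 0.43 ± 0.08. Of 14 tested eIF3 genes, 5 fell and 3 rose, with a median of -0.14, and the share that rose was near the 20.7% of all tested genes. Eif3b rose by 0.58 ± 0.06 (adjusted p = 3.6e-07, edgeR), Eif3a by 0.40 ± 0.07 and Eif3l by 0.31 ± 0.06. Eif3h fell by 0.39 ± 0.07 and Eif3e, whose human product binds IFIT proteins, fell by 0.24 ± 0.06.

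**Figure D5:**
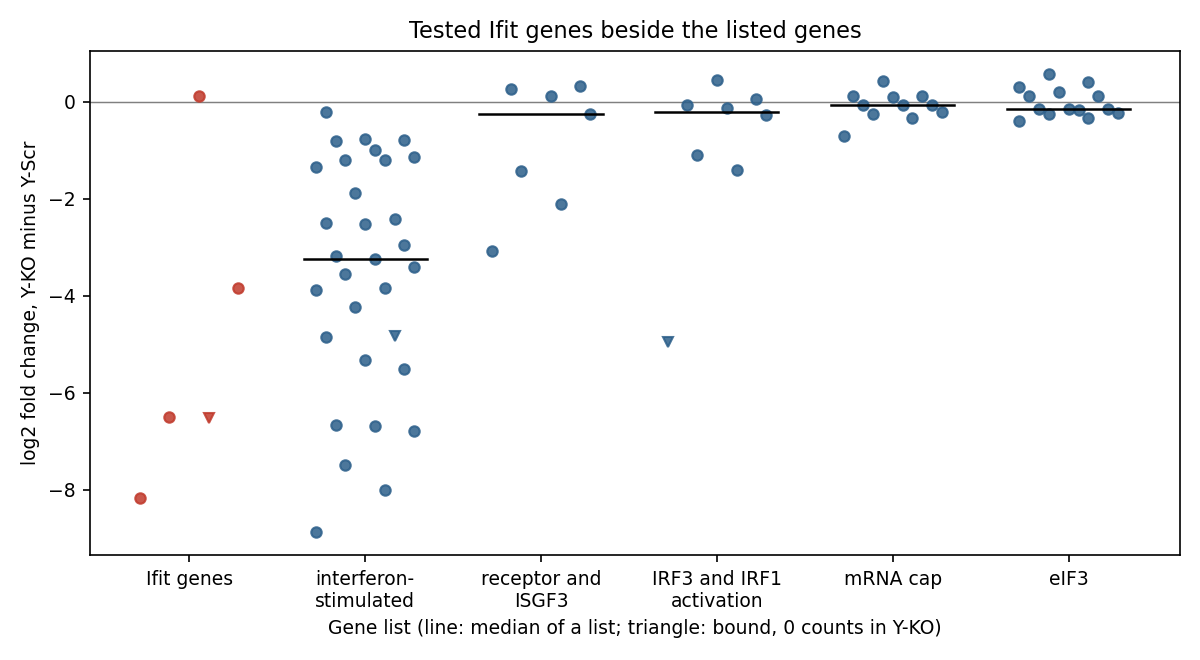
Log2 fold change, Y-KO minus Y-Scr, of the 5 tested Ifit genes (red) and of the tested genes of 5 lists (blue), with the median of each list as a line and genes with 0 counts in Y-KO as triangles at their bound. The interferon-stimulated genes have a median of -3.25, and Ifit2 at 0.13 lies above all 31 of them.

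For each tested Ifit gene, the genes with the most similar profile were found by the Euclidean distance between log2 CPM values centred on their mean over the 6 libraries, among 12003 genes of at least 1 CPM on average. Apart from Ifit2, whose groups overlapped, the profiles of the tested Ifit genes share the split into 2 groups. For those genes, the distance reflects mainly the size of the group difference. The prior count of 2 in these log values shrinks that difference for genes with few counts. Near genes therefore need not share a fitted change: it was -3.84 for Ifit1bl1 and -3.2 for its nearest gene, Tnfaip3. Nearest to Ifit1 were Rtp4 (distance 0.595), Oasl2, Csf2, Pthlh and Isg15. Nearest to Ifit3 were Ifi44 (0.602), Slfn8, Usp18, Oas2 and Isg15, and nearest to Ifit3b were Slfn8 (0.561), Rsad2, Gm29650, Irf7 and Oas2. Ifit1bl1, with its smaller difference, was nearest to Tnfaip3 (0.406), Vcam1, Irf9, Il23a and Oas1a. Nearest to Ifit2 were Pycrl (0.076), 4930430F08Rik, Phax, Nrarp and Ahsa1. Ifit2 lay 7.61 from Ifit3 and 9.21 from Ifit1, while Ifit3 and Ifit3b lay 0.861 apart.

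Of the 33 interferon-stimulated genes, 23 had a RefSeq window and 10 of these (43.5%) held an ISRE match, against 3.99% of all genes with a window. The other 13 of the 23 held none. Among the genes nearest in profile, the windows of Isg15, Slfn8, Rsad2 and Oas1a held a match, and those of Ifi44, Irf7, Irf9, Oasl2, Tnfaip3, Csf2, Pthlh, Nrarp and Ahsa1 held none; the others had no entry.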

How the data were processed

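Poly-A RNA of 6 MB49 libraries was sequenced from stranded TruSeq preparations, per the labels' protocols. The authors deposited a table of raw read counts per gene, 1 column per library and without normalization, together with gene coordinates and gene lengths. Per the submitters' processing notes, reads were handled with STAR 2.5.2b, featureCounts 1.5.3, Trimmomatic 0.39, DESeq2, FastQC 0.12.1 and MultiQC 1.13 (named without an order), and the builds are GRCm39 and mm39. The deposited coordinates matched GENCODE M21 (GRCm38) in 98.3% of 54409 shared genes, so they are given as GRCm38. Those notes do not state whether counting used strand or how reads with several alignments were treated. Library totals ranged from 15698510 to 24633158 counts. Libraries of a group differed beyond Poisson noise, with a chi-square over its degrees of freedom of 3.55 to 16.

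Differences were fitted in R 4.3.3 by edgeR 4.0.16, using TMM scaling, the 12907 of 54532 genes that filterByExpr kept, and a robust quasi-likelihood model of group alone, with Benjamini-Hochberg adjustment over all tested genes and a threshold of 0.05. The fit was tested on simulated data. Of the 6 Ifit genes, 5 passed the filter. Standard errors (SE) are those of the fit, CPM uses the TMM-scaled library sizes, and exact and Wilson 95% intervals and floors of 3 counts cover counting error only. Log2 CPM for profile distances used a prior count of 2.

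The Ifit genes and the lists were chosen with earlier results of these data known. Named genes are the 6 Ifit genes, 4 Y genes, the 4 tested genes of each list with the lowest adjusted p together with those called against its direction, tested genes within 1 Mb, and the 5 nearest profiles per tested Ifit gene; other genes were chosen after their values were seen, and 1 gene that the rule names is not reported here. The table lists 2 of the list genes under older symbols. Promoter windows are RefSeq's, and transcripts GENCODE's, aligned with Biopython 1.88. A planned comparison of protein sequences was not made, and coding sequences were compared in its place.

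Alternatives were RLE and upper-quartile scaling, DESeq2 1.42.0, limma-voom (limma 3.58.1), testing without a filter or from 1 CPM in 3 libraries, and a replicate block. Others were leaving out single libraries, summing Ifit3 with Ifit3b and Ifit1 with the Ifit1b-like genes, and TPM. Other neighbour windows, Pearson r for profiles and the 250 bases before the start were also used.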

Additional observations from a re-analysis of the deposited data

How the results depend on the processing

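Ifit2 had a log2 fold change of 0.06 to 0.19 over the other fits, scalings and left-out libraries, and 0.28 in TPM, where the median gene stood at 0.14. Ifit3 ranged from -6.88 to -6.21 and Ifit1bl1 from -3.99 to -3.66. Ifit1 ranged from -9.65 without Y-KO replicate 1 to -7.67 without Y-KO replicate 2. Summed with the Ifit1b-like genes, which is a different feature, it stood at -6.88. Ifit3b, at 0 counts in Y-KO, ranged from -9.64 without Y-Scr replicate 1 to -7.52 in limma-voom; the cause was not tested. Without single libraries, the neighbours counted as higher ranged from 1 to 2, and within 2 Mb 4 genes fell in place of 2. Lipn ranged from -0.30 to 0.01 without single libraries and was reversed, at 0.01, without Y-Scr replicate 2. Counts per list stayed within 1.5 times their values under each alternative run, and over the whole table the lower calls ranged from 2458 to 3004 and the higher ones from 2141 to 2803. The replicate number as a block left Ifit2 at 0.13 and gave 2627 lower and 2333 higher genes. Same-numbered libraries did not deviate together (correlations -0.064, -0.034 and -0.024), so the numbers were not taken as pairs. Of the 5 genes nearest to each Ifit gene by distance, Pearson r shared 0 or 1. With only the 250 bases before the start, 2.98% of windows held an ISRE match. The low Y-KO counts of the other Ifit genes limit their fold changes, not Ifit2's.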
